A study of Mus musculus with 26 samples.

Results

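The major urinary proteins are small carrier proteins of the lipocalin family that the mouse liver secretes and the kidney passes into urine. Described here are 8 of the 48 Mup genes and pseudogenes in the table, Mup1, Mup3, Mup7, Mup11, Mup15, Mup17, Mup20 and Mup21, out of 47643 genes in all, and each was found by the Ensembl identifier that maps to its symbol. They were chosen with their falls in the double knockout and high fat comparisons known, so their values in those 2 comparisons are a description and carry no test. In male mice these proteins bind and slowly release volatile pheromones, and MUP20, also called darcin, is itself a pheromone. Their transcription in hepatocytes is known to depend on pulsed pituitary growth hormone acting through STAT5b, together with liver transcription factors and glucocorticoid and thyroid hormones. The genes lie in 1 cluster of tandem copies, many of them almost identical, so that a short read often fits several copies.

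RNA was sequenced in 26 libraries of mouse liver that form 10 groups in 5 experiments, and each treated group was compared with its own control. In the first, C57BL/6J wild-type mice of 8 weeks, fed ad libitum, received corn oil (2 libraries) or TCPOBOP (2 libraries), an agonist of the nuclear receptor CAR; the sample titles give 36 hours after the injection and the source names give 6 hours, and the conflict could not be settled. In the second, C57BL/6J Fxr-/- Shp-/- mice, in which Nr1h4 (Fxr, a receptor that senses bile acids) and Nr0b2 (Shp, a co-repressor) are knocked out, were set against C57BL/6J wild-type mice, all of 12 weeks and fed ad libitum (3 libraries each). In the hepatectomy experiment, C3H/HeN mice of 8 to 10 weeks, fed ad libitum, were sampled 48 hours after partial hepatectomy or at 0 hours of a sham operation (3 libraries each), so surgery and time cannot be told apart. In the high fat experiment, hepatocytes were isolated from wild-type C57BL/6J mice of 16 weeks on chow or on a 60% high fat diet after a 10 hour fast (2 libraries each). In the cholic acid experiment, C57BL/6J mice of 10 to 12 weeks with floxed alleles of both Fxr and Shp in both groups, with no Cre named in the labels, were given chow or a cholic acid diet and fasted for 8 to 10 hours (3 libraries each). All but the high fat experiment used whole liver.

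Between 13949059 and 70367874 reads were counted in genes in each library. The labels give no sex, and every library held between 0 and 8 reads of Xist and between 779 and 6269 reads of the Y-linked gene Ddx3y. All 8 hepatocyte markers were present in every group, with a lowest group mean of 66.3 CPM, the count scaled to the library's total, for G6pc in the hepatectomy group. The knocked-out genes were lower as labelled: Nr0b2 stood at 15, 28.2 and 13.6 CPM in wild type and 0.594, 1.16 and 1.68 CPM in knockout, and Nr1h4 at 153, 161 and 117 CPM and 64.9, 55.6 and 58.4 CPM. The library labelled corn oil 1 went against its label. Its level of the CAR target Cyp2b10 was 3783 CPM, while corn oil 2 had 10.3 CPM and the 2 TCPOBOP libraries 3462 and 3076 CPM. For that experiment the Mup sum and the counts of Mup and sex-biased genes called are therefore given with and without it, and no direction is drawn.

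Because the copies are so alike, their sequences come first. The lines give the same stretch of 90 coding bases from each gene, taken from the GENCODE M21 transcripts (build GRCm38) and written 5′ to 3′ on the coding strand, which is the minus strand, with capitals at each base that differs from Mup7. It was chosen as the stretch of that length, after the first 72 aligned bases, with the most distinct sequences among the 8 genes.
Mup7: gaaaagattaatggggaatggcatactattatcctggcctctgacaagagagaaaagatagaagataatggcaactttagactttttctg
Mup1: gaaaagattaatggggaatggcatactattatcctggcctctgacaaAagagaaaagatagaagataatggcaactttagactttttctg
Mup11: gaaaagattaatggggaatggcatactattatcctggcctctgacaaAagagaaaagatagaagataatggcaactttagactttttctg
Mup15: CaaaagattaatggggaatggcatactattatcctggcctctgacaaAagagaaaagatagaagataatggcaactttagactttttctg
Mup17: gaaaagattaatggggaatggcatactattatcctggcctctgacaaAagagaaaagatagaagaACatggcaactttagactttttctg
Mup20: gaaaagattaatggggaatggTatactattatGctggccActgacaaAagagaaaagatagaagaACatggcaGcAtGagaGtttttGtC
Mup3: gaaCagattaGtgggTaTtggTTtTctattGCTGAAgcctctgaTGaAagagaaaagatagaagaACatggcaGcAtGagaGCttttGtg
Mup21: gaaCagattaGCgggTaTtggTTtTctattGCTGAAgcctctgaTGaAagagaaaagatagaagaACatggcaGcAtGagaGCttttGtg

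In this stretch Mup1 and Mup11 were the same and each differed from Mup7 at 1 base, Mup15 differed at 2 and Mup17 at 3. Mup20 differed at 12 bases, Mup3 at 24 and Mup21 at 25. Over the whole coding sequence the first 5 genes were 98.4% to 99.4% identical to one another. Mup20 was 90.1% to 91.4% identical to those 5, Mup3 82.2% to 83.4% and Mup21 83.7% to 84.8%, and Mup3 and Mup21 were 94.8% identical to each other. Mup1, Mup7, Mup11, Mup15 and Mup17 are called the near-identical copies here and Mup3, Mup20 and Mup21 the divergent genes; the split uses a coding identity of 95% and was made after the expression values had been seen, so it carries no test. All 8 genes lie on the minus strand of chromosome 4, are protein coding, and have 7 exons each in the transcript used, except Mup21 with 6; no exon of theirs overlaps an exon of another gene in that annotation. In GRCm38 Mup7 lies at chr4:60066469-60070475, Mup1 at chr4:60498012-60501960, Mup11 at chr4:60658466-60662411, Mup15 at chr4:61435790-61439743 and Mup17 at chr4:61591929-61595871. Mup20 lies at chr4:62050234-62054158, Mup3 at chr4:62083476-62087342 and Mup21 at chr4:62147932-62150863, so the divergent genes sit at 1 end of the cluster.

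A read can be placed on 1 copy only where its letters occur in no other gene. Of all windows of 50 bases along the transcript, 84.4% matched no transcript of another annotated gene, on either strand, for Mup3, 80.7% for Mup21 and 49.5% for Mup20. The share was 21.9% for Mup17, 11% for Mup11, 5.24% for Mup1, 3.64% for Mup7 and 0% for Mup15. With windows of 100 bases it rose to 97.1% for Mup3 and 40.6% for Mup17, but to 12.9% for Mup7 and 2.66% for Mup15. The read length is not given in the sources used here. Reads that aligned to more than 1 place stand in a summary line of the table and in no gene, so the counts of the near-identical copies rest on a small part of their sequence, and the sum of the 8 genes is given first in each comparison.

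The promoters are shown because the members were lower together in several comparisons. RefSeq windows of 250 bases before to 50 after the start site (GRCm38.p6) were held for 6 of the 8 genes (Mup3, Mup7, Mup11, Mup15, Mup17 and Mup21), and 5 of the 6 contained TATATAA, marked in capitals, against 3.24% of all 32851 promoters of this length, both strands searched. The Mup7 window did not contain it. That window was only 38.9% to 49.3% identical to the other windows, which were 59.4% to 98.0% identical to one another. In those the motif began at -2 (Mup11) to -25 (Mup15 and Mup17) from the listed RefSeq start site. By the GENCODE coordinates given above, the motif lies inside the annotated gene in all 5. The 2 annotations thus place the start differently, and the spread of these distances is not read as a difference between promoters. Whether the Mup7 window covers the matching start site was not tested, so the gene itself is not said to lack the motif. The 97 bases that end 5 bases after the motif follow, read on the minus strand from 5′ to 3′, with the chromosome position of each.
Mup11 (chr4:60662386-60662482): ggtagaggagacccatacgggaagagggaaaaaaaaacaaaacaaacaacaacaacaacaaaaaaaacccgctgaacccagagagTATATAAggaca
Mup15 (chr4:61439718-61439814): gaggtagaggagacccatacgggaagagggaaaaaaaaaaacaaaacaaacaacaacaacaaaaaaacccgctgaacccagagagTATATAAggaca
Mup17 (chr4:61595846-61595942): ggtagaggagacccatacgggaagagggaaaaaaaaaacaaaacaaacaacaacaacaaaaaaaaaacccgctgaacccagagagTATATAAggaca
Mup3 (chr4:62087317-62087413): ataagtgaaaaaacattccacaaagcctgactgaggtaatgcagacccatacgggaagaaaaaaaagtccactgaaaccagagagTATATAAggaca
Mup21 (chr4:62150838-62150934): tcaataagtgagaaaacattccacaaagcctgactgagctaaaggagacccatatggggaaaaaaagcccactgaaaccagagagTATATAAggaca

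The letters before the motif differed among these 5 windows. Mup11, Mup15 and Mup17 held a run rich in A: of 40 bases that end 12 bases before the motif, 67.5% were A in Mup11 and 70% in Mup15 and in Mup17, against 45% in Mup3 and 40% in Mup21. The spaced motif TTCNNNGAA, the letters that STAT proteins bind, was in 0 of the 6 windows and in 8.30% of all promoters. The letters TGTTTAC, bound by FOXA proteins, were in 0 of the 6 and in 3.65% of all promoters. The HNF1 motif was in 0 of the 6 and in 0.00913% of all promoters, too rare for its absence to tell anything. These counts say only that the letters are not in these windows.

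Summed over the 8 genes, the level was highest in wild type and lowest in the double knockout. The control groups averaged 29013 ± 1016 CPM in wild type (SD, n = 3), 28251 ± 891 CPM in chow hepatocytes (n = 2), 24635 ± 2544 CPM in floxed mice on chow (n = 3), 13899 ± 2742 CPM with corn oil (n = 2) and 9410.0 ± 1116 CPM in sham-operated C3H/HeN mice (n = 3). The treated groups averaged 15730.4 ± 2849 CPM with TCPOBOP (n = 2), 8301 ± 939 CPM with the high fat diet (n = 2), 6327 ± 1967 CPM with cholic acid (n = 3), 4768 ± 569 CPM after hepatectomy (n = 3) and 209 ± 151 CPM in the double knockout (n = 3). In order of level, wild type and chow hepatocytes overlapped between libraries, as did TCPOBOP and corn oil, sham and high fat, and cholic acid and hepatectomy. CPM were scaled within each experiment, and strain, age, feeding and sample type vary among the experiments, so the order across experiments is a description.

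**Figure D1:**
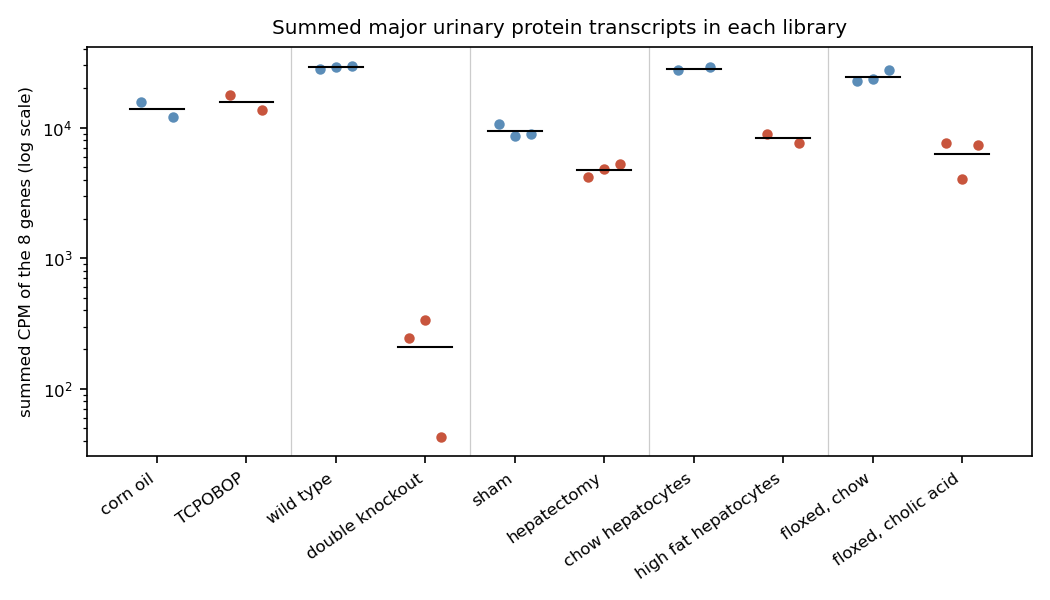
Summed CPM of the 8 genes in each of the 26 libraries, on a log axis, with blue points for control libraries, red points for treated libraries and a black line at each group mean; vertical lines separate the 5 experiments. The 3 double knockout libraries lie at 245, 339 and 42.4 CPM, below every other library, and the corn oil and TCPOBOP libraries overlap.

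In the double knockout all 8 genes were far below their wild-type level. The sum was 27888, 29289 and 29862 CPM in the 3 wild-type libraries and 245, 339 and 42.4 CPM in the 3 knockout libraries, a mean log2 ratio of -7.58, or 191-fold lower. The groups did not overlap, and knockout library 3 was the lowest. Mup3 stood at 12893, 13684 and 13764 CPM in wild type and 128, 192 and 22.5 CPM in knockout, 118-fold lower in the fit. Mup20, which encodes the pheromone darcin, went from 2609, 3455 and 3619.7 CPM to 58.5, 97.4 and 14.7 CPM, 56.8-fold lower and the smallest difference of the 8. Mup21, the gene most like Mup3 in sequence, went from 255, 489.8 and 437 CPM to 2.42, 2.18 and 0.818 CPM, 219-fold lower.

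Among the near-identical copies the knockout levels of Mup7 and Mup1 came down to 90 reads or fewer per library. Mup7 stood at 6151, 4762 and 6092 CPM in wild type, and in the knockout libraries it had 90, 4 and 4 reads, a log2 fold change of -11.90 ± 0.96 (standard error). Mup1 went from 291, 354 and 344 CPM to 8, 1 and 2 reads, a log2 fold change of -10.91 ± 0.31. These 2 genes gave the largest and second largest differences, and their fitted values rest on few reads. Mup11 went from 3258, 3013 and 2975 CPM to 4.30, 1.30 and 0.215 CPM, a log2 fold change of -10.64. Its value in knockout library 3 lay near the level of 3 reads there, 0.129 CPM. Mup15 went from 623, 1168 and 687 CPM to 5.89, 5.85 and 0.431 CPM, 205-fold lower, and Mup17 from 1808, 2364 and 1943 CPM to 41.1, 40 and 3.49 CPM, 72.4-fold lower. All 8 genes passed the filter on low counts and all 8 were called lower; 19.4% of all genes tested were called lower in this comparison, and in 26.9% every knockout library lay below every wild-type library; since the members were chosen from this comparison nothing is read from the count. Without knockout library 1, Mup7 moved to -14.90 and Mup1 to -12.13 on the log2 scale.

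Other cells and read placement moved with the genotype as well. The summed level of 25 markers of other liver cells (bile duct, macrophage, endothelium, stellate cell and leukocyte) was 275 to 401 CPM in wild type and 444 to 765 CPM in knockout; 13 of the 22 tested were called higher and 1 lower, beside 21% and 19.4% of all genes, none of the 25 was at 0 in either group, and their part in the result was not tested. Krt7, at 0.390 CPM in wild type and 0.934 CPM in knockout (group means), could pass the filter on low counts only through the knockout libraries. For such a marker only a rise could be called. Fewer cells of a type and less RNA per cell cannot be told apart in bulk samples. Reads that did not align uniquely made up 43.6 ± 0.481% of all reads in wild type (SD, n = 3) and 26.4 ± 0.738% in knockout; in no other group did a library exceed 25.1%. Their part in the result was not tested.

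**Figure D2:**
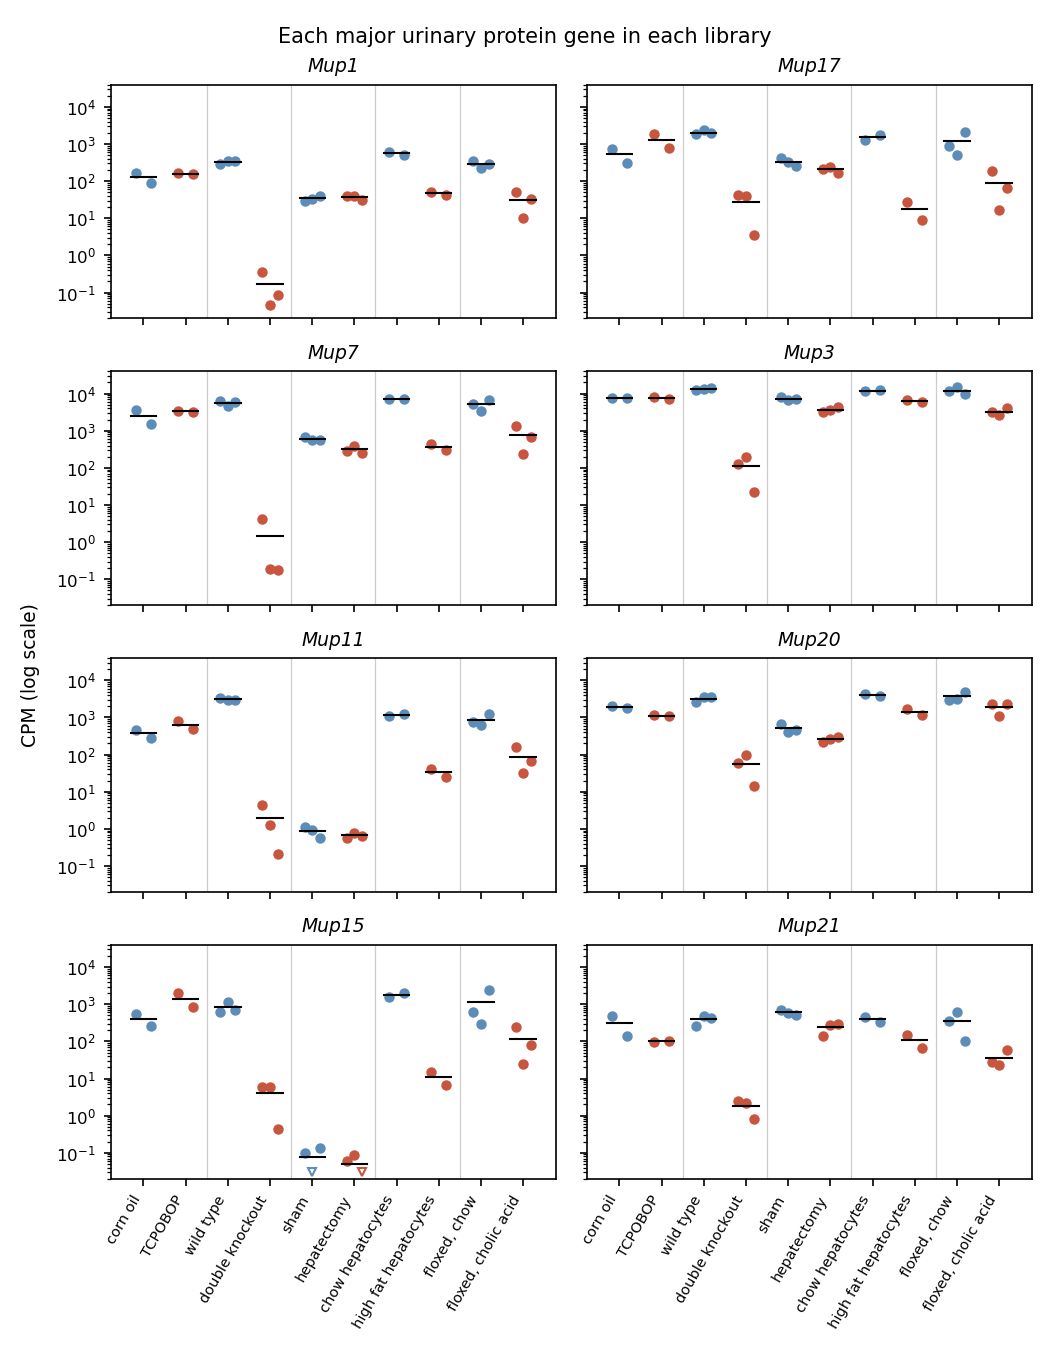
CPM of each of the 8 genes in each library, on a log axis, with blue points for control and red points for treated libraries, a black line at each group mean and an open triangle at the bottom for a library with 0 reads. Mup11 and Mup15 lie near the bottom in both C3H/HeN groups, sham and hepatectomy, and high in the C57BL/6J controls.

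In hepatocytes of mice on the high fat diet the near-identical copies were lower by 11.8-fold or more and the divergent genes by 3.69-fold or less. This held for the genes so named here, and some other near copies of Mup7, given below, differed less. The sum was 27620.5 and 28881 CPM on chow and 8964 and 7637 CPM on the high fat diet, a mean log2 ratio of -1.77, or 3.41-fold lower, and the groups did not overlap. Mup15 stood at 1545 and 1995 CPM on chow and 15.4 and 6.76 CPM on the high fat diet, a log2 fold change of -7.32 ± 0.47. Mup17 went from 1296 and 1781 to 27.6 and 8.93 CPM, 84.3-fold lower. The other near-identical copies differed less. Mup11 went from 1109 and 1265 to 41.8 and 25.5 CPM, 35.3-fold lower. Mup7 went from 6957 and 7023 to 449.5 and 297 CPM, 18.7-fold lower, and Mup1 from 597 and 513 to 51.1 and 43 CPM, 11.8-fold lower.

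Of the divergent genes Mup3 remained the most abundant in the same hepatocytes. Mup3 stood at 11429 and 12214 CPM on chow and 6577 and 6019.8 CPM on the high fat diet, a log2 fold change of -0.91 ± 0.10. Mup20 went from 4233 and 3759 to 1657 and 1169 CPM, 2.83-fold lower, and Mup21 from 454 and 329.9 to 145 and 67.4 CPM, 3.69-fold lower. The near-identical copies summed to 0.714 and 0.771 times the divergent genes in the chow libraries and to 0.0699 and 0.0526 times in the high fat libraries. All 8 genes were called lower, beside 11.1% of all genes tested (33% had both high fat libraries below both chow libraries), and nothing is read from that count. Without high fat library 1, Mup17 moved to -7.43, Mup15 to -8.03 and Mup21 to -2.54 on the log2 scale. In these isolated cells the markers of other liver cells summed to 68.9 to 72.8 CPM on chow and 146 to 156 CPM on the high fat diet, with 13 of 18 tested called higher and 0 lower, beside 12.9% and 11.1% of all genes. Col1a1, at 0.0425 CPM on chow and 0.741 CPM on high fat (group means), could pass the filter only through the high fat libraries. For such a marker only a rise could be called. The bile duct markers Krt19 and Epcam and the B cell markers Cd79a and Ms4a1 were at 0 in both chow libraries, and Ms4a1 also in both high fat libraries. Their part in the result was not tested. Reads that did not align uniquely were 24.2 ± 0.519% on chow and 19.2 ± 0.213% on the high fat diet (SD, n = 2).

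**Figure D3:**
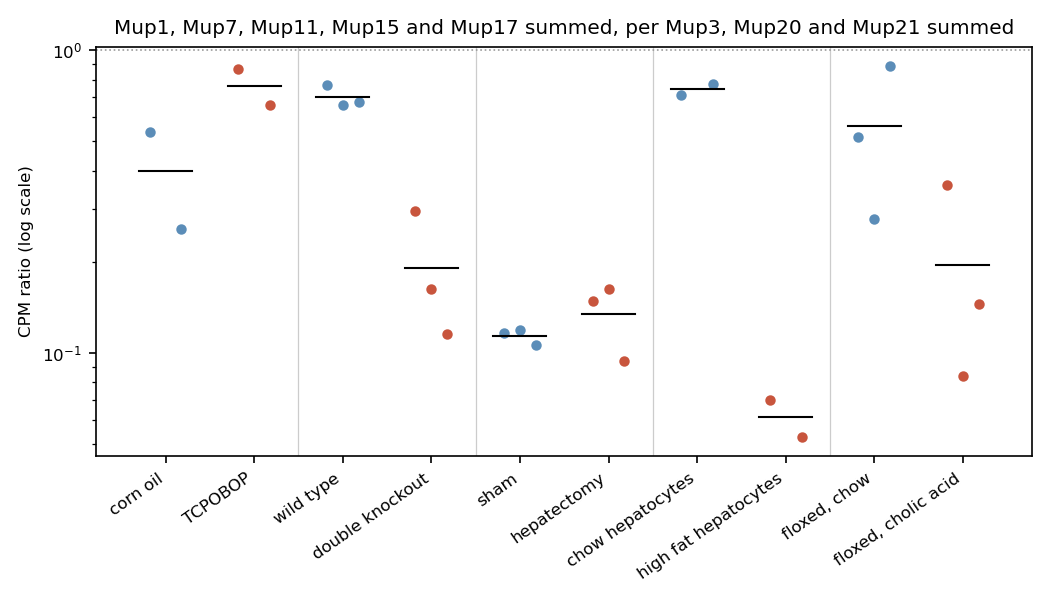
Ratio of the summed CPM of Mup1, Mup7, Mup11, Mup15 and Mup17 to that of Mup3, Mup20 and Mup21 in each library, on a log axis, with blue control and red treated libraries and a black line at each group mean. The ratio is 0.770, 0.661 and 0.676 in wild type and 0.295, 0.163 and 0.116 in knockout, is near 0.1 in the sham libraries, and is lowest in the 2 high fat libraries.

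The balance between near-identical and divergent genes lay below the whole control range in all treated libraries of the double knockout and high fat experiments, lay above it in both TCPOBOP libraries, and overlapped in the cholic acid and hepatectomy experiments. The near-identical sum was 0.770, 0.661 and 0.676 times the divergent sum in wild type and 0.295, 0.163 and 0.116 times in the knockout, with no overlap. It was 0.516, 0.276 and 0.890 times in floxed mice on chow and 0.358, 0.0841 and 0.145 times with cholic acid, where the groups overlapped. In C3H/HeN mice it was 0.116, 0.119 and 0.107 times in sham and 0.148, 0.163 and 0.0942 times after hepatectomy, and here too the libraries overlapped. It was 0.538 and 0.258 times with corn oil, of which the first is the library that goes against its label, and 0.867 and 0.660 times with TCPOBOP. Among replicates of 1 group, taken as deviations from the group mean over the 20 libraries outside the hepatectomy experiment, the 10 pairs of near-identical copies had Pearson correlations of 0.69 to 0.96 (median 0.79) on the log2(CPM + 1) scale. The 15 pairs of 1 near-identical and 1 divergent gene had correlations from -0.05 to 0.85 (median 0.41). These points share libraries and the near-identical copies share reads, so the correlations are a description.

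With the cholic acid diet the family was lower as well, and here single genes could be tested. The sum was 22724, 23659 and 27522 CPM on chow and 7588, 4061 and 7333 CPM with cholic acid, a primary bile acid, a mean log2 ratio of -2.01, or 4.03-fold lower, and the groups did not overlap. By edgeR's quasi-likelihood test, adjusted by Benjamini-Hochberg over all genes tested, 5 of the 8 genes were called lower and 0 higher, beside 2.5% of all genes called lower. In all 8 genes every cholic acid library lay below every chow library, which held for 15.7% of all genes tested. The median log2 fold change of the 8 was -3.23 and that of all genes 0.01.

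Mup3 stood at 11707, 14748 and 9533 CPM on chow and 3196, 2646 and 3985 CPM with cholic acid. It fell by 1.87 ± 0.25 in log2 units (edgeR's adjusted p = 0.00913), and the groups did not overlap. Mup1 went from 339, 229.6 and 296 to 50.8, 10.3 and 32.8 CPM, a log2 fold change of -3.20 ± 0.51 (edgeR adjusted p = 0.0140). Mup11 went from 774, 619.7 and 1232 to 164, 31 and 69 CPM, a log2 fold change of -3.31 ± 0.58 (edgeR adjusted p = 0.0187). Both are near-identical copies, and cholic acid library 2 was the lowest for each. Mup21 went from 344, 611 and 99.9 to 27.2, 22.7 and 60.4 CPM, a log2 fold change of -3.26 ± 0.65 (edgeR adjusted p = 0.0299), and Mup7 from 5099, 3488 and 6842 to 1349, 233 and 682 CPM, a log2 fold change of -2.77 ± 0.58 (edgeR adjusted p = 0.0351).

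The other 3 genes did not pass the test. Mup17 stood at 899.8, 495 and 2129.6 CPM on chow and 191, 16.5 and 65.3 CPM with cholic acid, a log2 fold change of -3.69 ± 0.88 (edgeR adjusted p = 0.0540). Mup15 stood at 619, 291 and 2459 and 245, 24.7 and 81.3 CPM, a log2 fold change of -3.26 ± 0.98 (edgeR adjusted p = 0.0974). In both genes chow library 3 was the highest by far, while the same library was the lowest chow library for Mup21 and Mup3. Mup20 had the smallest difference of the 8, from 2942, 3177 and 4929.6 to 2365, 1077 and 2356 CPM, a log2 fold change of -0.93 ± 0.34 (edgeR adjusted p = 0.155).

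The calls depended on single libraries. Without cholic acid library 3 only Mup3 was called (edgeR adjusted p = 0.0282), and without chow library 1 or chow library 2 the count was 3; without cholic acid library 2 it was 4. Mup21 lost its call in each of the 5 fits without chow library 1, chow library 2, or cholic acid library 1, 2 or 3, with adjusted p from 0.0605 to 0.115. Mup7 lost its call in 3 of the 6 fits, without chow library 1 (adjusted p = 0.0735), chow library 2 (0.0726) or cholic acid library 3 (0.139), and Mup1 (0.0655) and Mup11 (0.0876) lost theirs without cholic acid library 3. Mup17 passed without cholic acid library 1 (adjusted p = 0.0435). The direction stayed the same in all these fits. The summed markers of other liver cells were 236 to 401 CPM on chow and 306 to 462 CPM with cholic acid, with 0 of 21 tested called in either direction. Reads that did not align uniquely lay in separate ranges, 23.8 to 25.1% on chow and 16.6 to 17.6% with cholic acid, and their part in the result was not tested.

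In C3H/HeN mice 48 hours after partial hepatectomy the sum was about 1 log2 unit lower than in sham livers. It was 10692, 8652 and 8886 CPM in sham and 4174, 4823 and 5308 CPM after hepatectomy, a mean log2 ratio of -0.98, or 1.97-fold lower, with no overlap. Of the 8 genes 7 passed the filter on low counts, and 5 of those 7 were called lower and 0 higher, beside 14.3% of all genes tested called lower (22.6% had no overlap in that direction). The median log2 fold change of the 7 was -0.94 and that of all genes 0.01. The divergent genes, all 3 of them, were called. Mup3 stood at 8176, 6764 and 7062 CPM in sham and 3272, 3609 and 4255 CPM after hepatectomy. It fell by 0.98 ± 0.13 in log2 units (edgeR's adjusted p = 0.000992), and its groups did not overlap. Mup21 went from 716, 566 and 522 to 139, 280.5 and 294 CPM, a log2 fold change of -1.34 ± 0.27 (edgeR adjusted p = 0.00743) and the largest difference of the 7. Mup20 went from 686, 405 and 446 to 225, 259 and 302 CPM, a log2 fold change of -0.97 ± 0.20 (edgeR adjusted p = 0.00898).

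The group means of the near-identical copies were lower in both C3H/HeN groups than in each C57BL/6J control group, each experiment scaled on its own, although single libraries overlapped for Mup17. Mup7 went from 671, 566 and 562 to 293, 389 and 259 CPM and fell by 0.94 ± 0.16 in log2 units (edgeR's adjusted p = 0.00321). Mup17 went from 412, 317 and 253 to 206, 247 and 165 CPM, a log2 fold change of -0.67 ± 0.20 (edgeR adjusted p = 0.0352). Mup17 lost its call without sham library 1 (0.0963), sham library 2 (0.0865), hepatectomy library 1 (0.0786) or hepatectomy library 3 (0.0712), each value an edgeR adjusted p. Mup1 stood at 29.5, 33.2 and 39.6 CPM in sham and 38.9, 38.7 and 31.9 CPM after hepatectomy, overlapping, with a log2 fold change of 0.10 ± 0.13 (edgeR adjusted p = 0.606). Mup11 stood at 1.14, 0.956 and 0.582 CPM and 0.583, 0.796 and 0.663 CPM (log2 fold change -0.40 ± 0.32, edgeR adjusted p = 0.384). Mup15 had 3, 0 and 4 reads in sham and 2, 3 and 0 reads after hepatectomy, so it was not tested and no fold is given. In the C57BL/6J control groups Mup11 lay between 279.6 and 3258 CPM and Mup15 between 254 and 2459 CPM. Strain and experiment cannot be told apart here. The summed markers of other liver cells were 392 to 525 CPM in sham and 439.5 to 485 CPM after hepatectomy, overlapping. Of 21 tested, 4 were called higher and 1 lower, beside 16.4% and 14.3% of all genes. The 5 stellate cell markers summed to 99.6 to 125 CPM in sham and 145 to 161 CPM after hepatectomy. Bile duct, macrophage, endothelium and leukocyte markers overlapped. The 8 hepatocyte markers summed to 137877 to 139641 CPM in sham and 101097 to 111250 CPM after hepatectomy. The part of these markers in the result was not tested. Reads that did not align uniquely were 20.4 ± 0.302% and 19.4 ± 0.602% (SD, n = 3).

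The effects of hepatectomy and of cholic acid were set against each other in a single fit of the 12 libraries. Mup1 differed between them: its hepatectomy effect minus its cholic acid effect was 3.31 ± 0.56 on the log2 scale (edgeR interaction test, adjusted p = 0.00306). Mup11 differed by 2.92 ± 0.77 (adjusted p = 0.0273), from a level of about 1 CPM in C3H/HeN mice. These 2 of 8 passed in the direction of a higher log2 fold change after hepatectomy, beside 8.02% of all genes, and 0 passed in the other direction, beside 5.01%. The count of 2 was 5 by DESeq2, 6 with no filter on low counts and 4 with the replicate number as a block. Mup17 (3.03 ± 0.96, adjusted p = 0.0560) and Mup3 (0.89 ± 0.28, adjusted p = 0.0557) did not pass in the edgeR fit, nor did Mup7 (1.84 ± 0.64, adjusted p = 0.0798) or Mup21 (adjusted p = 0.113). Mup15 had too few reads in C3H/HeN mice to be tested there alone, and it passed the filter on low counts through the floxed groups. Its value (2.67 ± 3.11, edgeR adjusted p = 0.626) is therefore no test of a difference between the effects. For Mup20 the difference of the effects was -0.03 ± 0.43 (adjusted p = 0.973). The call of Mup11 was lost in 6 of the 12 fits that left out 1 library (adjusted p up to 0.0682): without sham library 2 or 3, hepatectomy library 2 or 3, chow library 3, or cholic acid library 3. The 2 experiments also differ in strain, age and feeding, which cannot be told apart from the treatments.

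**Figure D4:**
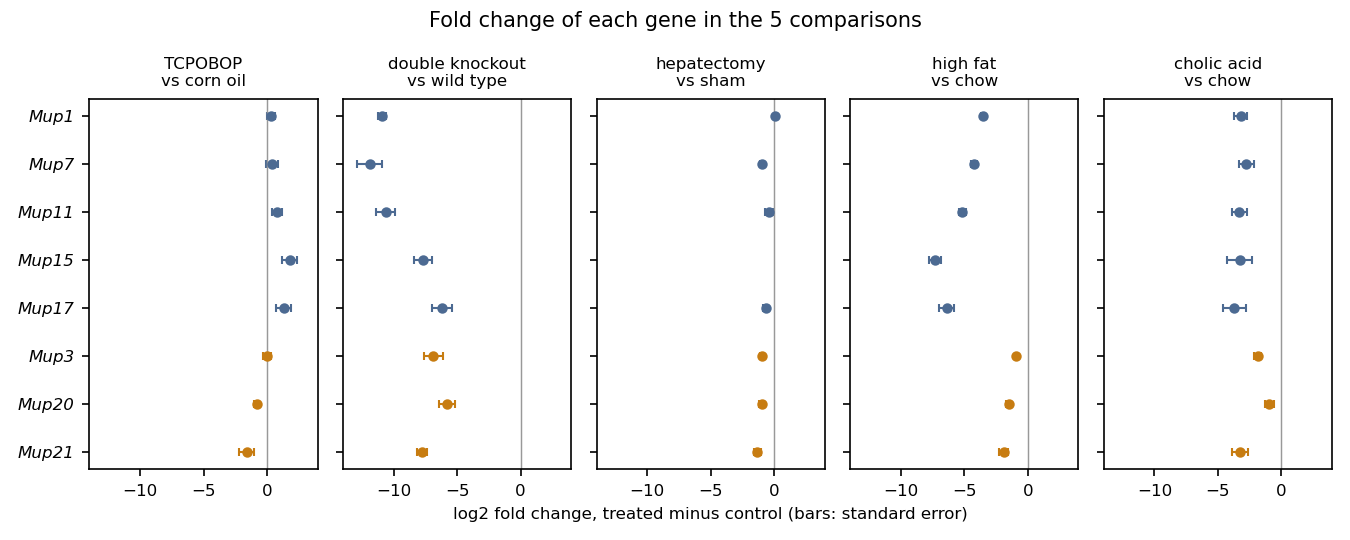
Log2 fold change of each gene, treated minus control, in the 5 comparisons, with bars of 1 standard error from the edgeR fit; blue points are the near-identical copies and orange points the divergent genes, and Mup15 is missing after hepatectomy because it was not tested. In the high fat panel the blue points run from -7.32 to -3.56 and the orange points from -1.88 to -0.91.

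In the TCPOBOP experiment the sum did not separate the groups. It was 15838 and 11959.8 CPM with corn oil and 17745 and 13716 CPM with TCPOBOP, a mean log2 ratio of 0.18 with all 4 libraries and 0.38 without the library labelled corn oil 1. By edgeR's test 0 of the 8 genes were called, as were 0 of the 12785 genes tested (0%), while 751 genes had an unadjusted p under 0.05 and DESeq2 called 109. Mup20 stood at 2054 and 1854 CPM with corn oil and 1165 and 1069 CPM with TCPOBOP, a log2 fold change of -0.81 ± 0.21 (edgeR adjusted p = 0.812), and it did not overlap. Mup21 stood at 469 and 138 and 96.2 and 105 CPM, a log2 fold change of -1.59 ± 0.58 (edgeR adjusted p = 0.839). Mup3, the most abundant of the 8 per length, stood at 7778 and 7517 and 8244 and 7086 CPM. In 3 near-identical copies both TCPOBOP libraries lay above both corn oil libraries, and in Mup20 and Mup21 both lay below, which held for 16.8% and 18.7% of all genes. Mup15 stood at 558 and 254 and 1977 and 828 CPM, Mup17 at 745 and 305 and 1803 and 803 CPM, and Mup11 at 464 and 279.6 and 793 and 488 CPM. Mup7, at 3606 and 1524 and 3503 and 3185 CPM, and Mup1, at 165 and 88.2 and 162 and 153 CPM, overlapped between groups, with corn oil 1 the higher of the corn oil libraries.

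Leaving out either corn oil library changed the calls of this family. Without corn oil 1, which leaves 1 control that is assumed to vary like the TCPOBOP libraries, all 5 near-identical copies were called higher, from 0.84 for Mup1 (edgeR adjusted p = 0.00574) to 2.47 for Mup15 (edgeR adjusted p = 0.0140) on the log2 scale, beside 5.71% of all genes. Mup20 was called lower in the same fit (-0.73, edgeR adjusted p = 0.0262), beside 3.64% of all genes. Without corn oil 2 instead, Mup20 (-0.88, edgeR adjusted p = 0.0259) and Mup21 (-2.22, edgeR adjusted p = 0.000337) were called lower, beside 1.64% of all genes, and 0 members higher, beside 1.51%. The only control of that last fit is corn oil 1, which went against its label, with Cyp2b10 at 3783 CPM. That fit therefore cannot back the other one. Mup20 was lower in both fits (-0.73 and -0.88), while Mup3 ran from -0.10 to 0.13 over all fits without 1 library. With 1 control in each of the 2 fits, no direction is drawn.

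Per kilobase of annotated exon, Mup3 was the most abundant of the 8 in each of the 10 groups. In wild type it stood at 12591 ± 451 CPM per kb (SD, n = 3), followed by Mup7 at 5487 ± 760.3, Mup20 at 3478 ± 585, Mup17 at 2199 ± 313, Mup11 at 1956 ± 97.5, Mup15 at 893 ± 322, Mup21 at 582 ± 182 and Mup1 at 208 ± 21.4 CPM per kb. Mup17 and Mup11, neighbours in this order, lay within the SD of Mup17 of each other, and so did Mup15 and Mup21 within that of Mup15. Mup7 held the second place in 5 groups. The second place went to Mup20 in the knockout, high fat and cholic acid groups, at 61.3 ± 44.6, 1523 ± 372 and 2083 ± 798 CPM per kb, and to Mup21 in both C3H/HeN groups, at 888 ± 151 CPM per kb in sham and 351 ± 127 after hepatectomy. Some second places lay within their own SD of the next gene. These were Mup21 after hepatectomy (Mup7 at 304 ± 65.4 CPM per kb) and Mup20 in the knockout (Mup17 at 30.4 ± 23.1). The same held for Mup7 with corn oil (2483 ± 1426, Mup20 at 2105 ± 152) and in floxed mice on chow (4979 ± 1624, Mup20 at 3968 ± 1171). Mup3 also has the largest share of unique sequence, and Mup15, Mup7 and Mup1 the smallest, and how far that sets the order was not tested.

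The table also held 13 other coding Mup genes and 27 Mup pseudogenes, of which 5 rows were at 0 in every library. Of the other coding genes 11 of 11 tested were called lower in the knockout (19.4% of all genes) and 11 of 11 with the high fat diet (11.1%), 7 of 10 with cholic acid (2.5%), 5 of 11 after hepatectomy (14.3%) and 0 of 11 with TCPOBOP (0%), and 0 were called higher in these fits. Without corn oil 1, 3 of 11 were called higher with TCPOBOP and 0 lower, beside 5.71% and 3.64% of all genes. Mup2, Mup5, Mup8, Mup10, Mup12 and Mup13, at means of 0.0155 to 0.185 CPM in the knockout, passed the filter only through wild type. Mup10 and Mup13, at means of 0.445 and 0.313 CPM with cholic acid, passed it there only through chow. Such genes could only be called lower, so they add nothing to the knockout and cholic acid counts. Mup14, whose coding sequence differs from that of Mup7 at 5 of 543 aligned positions, went from 1841 to 1.57 CPM in the knockout and from 2057 to 40.9 CPM with the high fat diet (group means). Near copies of Mup7 outside the 8 genes varied widely in the high fat comparison. Mup10 and Mup2, each 98.7% identical to Mup7 in coding sequence, were 3.05-fold and 1.49-fold lower, and Mup12 (99.3%) was 8.20-fold lower. Mup13 was 10.8-fold lower, and Mup8, Mup9, Mup16, Mup18 and Mup19 were lower by 22.1-fold or more. The split seen in the 8 genes thus did not extend to all near copies. In C3H/HeN mice Mup12 took a large place, at 2665, 2231 and 2025 CPM in sham and 1357, 1445 and 1011 CPM after hepatectomy, and it fell by 0.86 ± 0.16 in log2 units (edgeR's adjusted p = 0.00490). In the C57BL/6J control groups Mup12 averaged 45.8 CPM (corn oil) to 222 CPM (chow hepatocytes). Mup10 stood at 1202 and 1390.4 CPM in chow hepatocytes and at most 5.75 CPM in any library of the other 4 experiments. How far such differences between experiments come from the animals or from the placement of reads among copies was not tested.

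Other genes known to differ between male and female liver were taken from lists of 14 male-biased and 17 female-biased genes, chosen with earlier results of these data known. In the double knockout all 14 male-biased genes were called lower and 0 higher. Their median log2 fold change was -5.64, or -5.35 with Moxd1, at 0 reads in every knockout library, held at the limit of 3 reads. All 15 female-biased genes tested were called higher (median 6.00, or 5.83 with Sult2a2 and Sult3a1 held at that limit). Of all genes, 19.4% were called lower and 21% higher. Sult2a1, Sult2a2 and Sult3a1, at or near 0 in wild type, passed the filter on low counts only through the knockout libraries. Moxd1 and Slco1a1, at or near 0 in the knockout, passed it only through wild type. The direction of such genes was fixed by the filter, so they add nothing to the counts of 14 and 15. All 17 female-biased genes summed to 22.8 to 44.9 CPM in wild type and 2289 to 2655 CPM in knockout, so nothing is read from their count beside the share. Slco1a1, an organic anion carrier of male liver, went from 277 ± 42 to 0.182 ± 0.238 CPM (mean ± SD, n = 3). Sult2a1, a bile acid sulfotransferase of female liver, went from 0.173 ± 0.0961 to 1251 ± 175 CPM, and its copy Sult2a2, at 0 reads in wild type, was at least 1493-fold higher with a floor of 3 reads per library. With the high fat diet 14 of 14 male-biased genes were called lower and 0 higher, and of 8 female-biased genes tested 6 were called higher and 2 lower, beside 11.1% of all genes called lower and 12.9% higher. Selenbp2, a selenium-binding protein gene of male liver, went from 1106 ± 347 to 38.5 ± 6.12 CPM, and the female-biased Cyp2b9 from 0.539 ± 0.509 to 174 ± 37.9 CPM (n = 2).

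With cholic acid 10 of 13 male-biased genes tested were called lower and 0 higher, while 0 of 4 female-biased genes tested were called, beside 2.5% of all genes called lower and 2.27% higher. Selenbp2 fell by 6.07 in log2 units (edgeR's adjusted p = 0.00256) and Hsd3b5 fell by 5.98 (edgeR adjusted p = 0.00256). After hepatectomy the list was mixed, with 6 of 13 male-biased genes called lower and 2 higher, and 3 of 7 female-biased genes called lower and 0 higher, beside 14.3% and 16.4% of all genes. Cyp4a12a fell by 1.41 (edgeR adjusted p = 0.000782) and Elovl3, a fatty acid elongase, rose by 1.27 (edgeR adjusted p = 0.0106). In the same livers the female-biased Cyp2c40 fell by 5.02 (edgeR adjusted p = 0.00200). With TCPOBOP 0 genes of either list were called, where 0% of all genes were. Without corn oil 1, 4 of 13 male-biased genes were called lower and 1 higher, and 6 of 10 female-biased genes higher and 0 lower, beside 3.64% of all genes called lower and 5.71% higher; this fit of the lists was added after seeing the data.

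**Figure D5:**
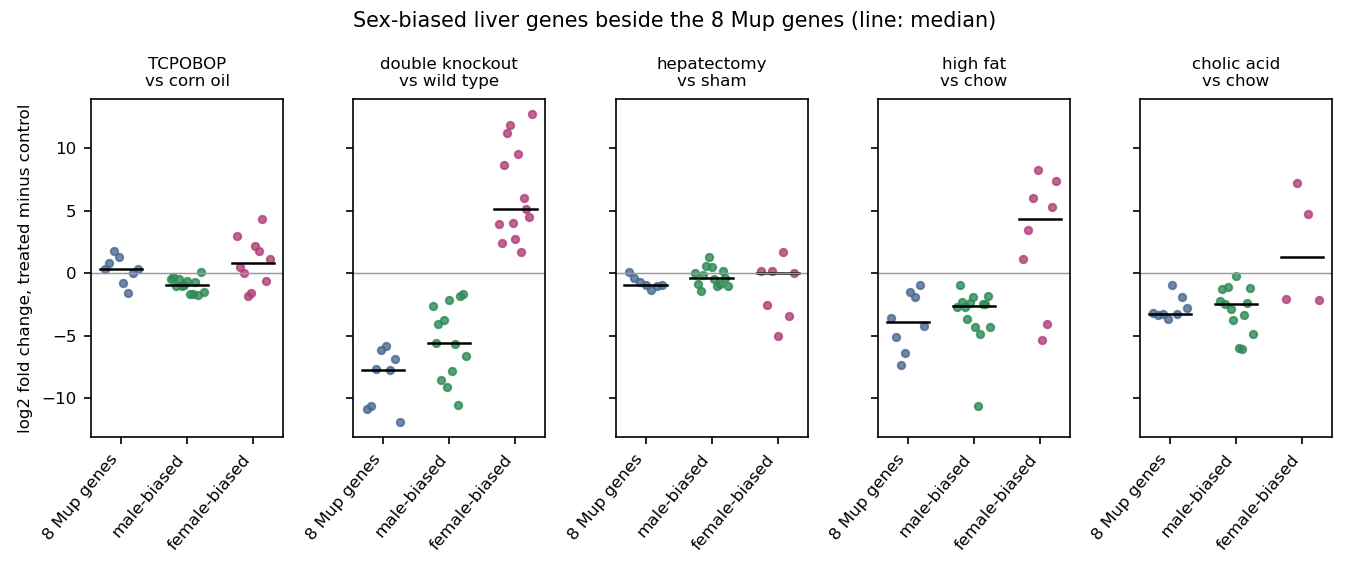
Log2 fold changes of the 8 genes, the male-biased and the female-biased genes tested in each comparison, with a black line at each median; genes at 0 reads in every library of a group are left out. In the double knockout panel all points of the first 2 columns lie below 0 and all points of the last column above it, and in the hepatectomy panel the medians are -0.94, -0.34 and 0.01.

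Genes of growth hormone and STAT5 signalling and hepatocyte transcription factors made a list of 23. In the double knockout 9 were called lower and 2 higher, with cholic acid 4 lower and 2 higher, after hepatectomy 7 lower and 0 higher, and with the high fat diet 3 lower and 3 higher. With TCPOBOP 0 of 22 tested were called in either direction, where 0% of all genes were called. Of all genes, 19.4% were called lower and 21% higher in the knockout, 2.5% and 2.27% with cholic acid, 14.3% and 16.4% after hepatectomy, and 11.1% and 12.9% with the high fat diet, where the count of regulators was near these shares. Bcl6, a repressor that is higher in male liver, fell by 2.39 in the knockout in log2 units (edgeR's adjusted p = 0.00192), and Cish, a feedback inhibitor of STAT5 signalling, rose by 1.58 (edgeR adjusted p = 0.00190). With cholic acid Cux2, a regulator found in female liver, rose from 0.638 ± 0.802 to 32.7 ± 24 CPM (edgeR adjusted p = 0.0199). Cux2 passed the filter on low counts there only through the cholic acid libraries. Only a rise could be called, so its p is no test of direction. Stat5b rose by 1.00 with cholic acid (edgeR adjusted p = 0.0211). Igfals, which encodes a growth hormone dependent carrier of IGF1, fell by 1.55 with cholic acid (edgeR adjusted p = 0.0141) and by 0.81 after hepatectomy (edgeR adjusted p = 0.00977). After hepatectomy Cux2 fell by 3.65 (edgeR adjusted p = 0.000470). With the high fat diet Onecut1, a hepatocyte transcription factor gene, rose by 1.69 (edgeR adjusted p = 0.0287) and Foxa3 fell by 1.06 (edgeR adjusted p = 0.0367).

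Other lipocalins, the protein family the Mup genes belong to, were counted in the same way. Of the 9 tested in the knockout 4 were called lower and 4 higher, with the high fat diet 2 of 10 lower and 3 higher, with cholic acid 0 lower and 1 higher, and after hepatectomy 1 of 10 lower and 5 higher. The shares of all genes called lower and higher were 19.4% and 21% in the knockout, 11.1% and 12.9% with the high fat diet, 2.5% and 2.27% with cholic acid, and 14.3% and 16.4% after hepatectomy. With TCPOBOP 0 of 10 lipocalins and 0 of 22 secreted proteins were called, where 0% of all genes were called. Lcn2, an iron-binding acute phase protein, rose after hepatectomy from 7.12 ± 2.84 to 239.9 ± 87.8 CPM (log2 fold change 5.07, edgeR adjusted p = 6.37e-05), and the acute phase gene Orm2 rose by 5.01 (edgeR adjusted p = 2.68e-05). Rbp4, the retinol carrier, fell by 0.38 (edgeR adjusted p = 0.0336) in the same livers. Of 22 other abundant secreted proteins, 9 were called lower and 0 higher in the knockout, 5 lower and 1 higher with the high fat diet, 7 lower and 0 higher with cholic acid, and 6 lower and 6 higher after hepatectomy, to be read beside the same shares. Serpina1e, a protease inhibitor of male liver, went from 9685 ± 979 to 211 ± 10.5 CPM in the knockout, from 9251 ± 3510.3 to 214 ± 31.6 CPM with the high fat diet and from 9951 ± 1137 to 726 ± 488 CPM with cholic acid. After hepatectomy Hp, which encodes haptoglobin, rose by 1.64 (edgeR adjusted p = 0.000597) and Serpina1d fell by 0.68 (edgeR adjusted p = 0.000763). Serpina1 genes are near copies of one another, so their single values are uncertain for the same reason as those of the Mup genes.

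Across all 26 libraries, each taken as the deviation from the mean of its own experiment on the log2(CPM + 1) scale, the gene most like the Mup sum among 8912 genes was Cyp2d9, a male-biased cytochrome, with a Pearson correlation of 0.99. It was followed by Serpina1c (0.97), Arhgap42 (0.95), Casd1 (0.95) and Slco1a1 (0.95). The 3 genes most opposed to it were Rcan2 (-0.94), Slc25a4 (-0.94) and Cd63 (-0.94). The libraries share groups and the knockout experiment carries most of the range, so these values are a description. Without that experiment, over 20 libraries, Cyp2d9 stood at 0.92 and Slco1a1 at 0.92, Serpina1c at 0.76, and Rcan2, Slc25a4 and Cd63 at -0.55, -0.40 and -0.56. Cyp2d9 went from 2179.7 ± 20.3 CPM in wild type to 45 ± 17.1 CPM in the knockout, from 2067 ± 373 to 1106 ± 72.2 CPM with the high fat diet, from 1608 ± 167 to 676 ± 88.5 CPM with cholic acid and from 1538 ± 48.2 to 856 ± 77.3 CPM after hepatectomy. Rcan2 averaged 74.2 ± 14.5 CPM in the knockout and under 8 CPM in each of the other groups.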

How the data were processed

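Liver RNA of 26 libraries was sequenced after poly(A) selection with a stranded kit, per the labels' protocols. The submitters' processing notes name bcl2fastq 2.17.1.14, Trimmomatic, STAR 2.4.2a, Picard 1.119 and HTSeq with builds GRCm38 and mm10; the annotation release is not given in the sources used here. The deposited table holds read counts per gene made by the authors, with 47643 genes and 5 summary lines, which stayed out of library sizes and tests. Symbols were matched for 47224 identifiers, and 0 columns of samples were left unused.

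The members and all gene lists were chosen with earlier results of these data known. Each experiment was fitted alone with edgeR 4.0.16 (R 4.3.3): TMM scaling, the default filter on low counts (minimum count 10, minimum total 15), and the quasi-likelihood F test, with Benjamini-Hochberg adjustment over all genes tested and a threshold of 0.05. CPM were scaled by TMM. DESeq2 1.42.0, other scalings, no filter, a replicate block and leaving out each library were the alternatives. The scripts were tested on simulated data. Named genes from the lists were chosen from the 2 largest called rises and 2 largest called falls per list and comparison; genes most like the Mup sum were ranked by correlation. The labels do not say that replicates came from separate mice, so p-values measure the spread between these samples, which may be technical. The fits estimated the spread between libraries as well as counting error. The floor for a gene at 0 was 3 counts per library. A gene that this rule would name is not reported here.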

Additional observations from a re-analysis of the deposited data

How the results depend on the processing

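The members called lower in the double knockout (8), high fat (8) and hepatectomy (5) comparisons stayed within 1.5 times their counts under DESeq2, other scalings, no filter, the replicate block and each left-out library. With cholic acid the count of 5 ran from 1 to 5 without 1 library each. Over all genes that comparison called 600 genes, against 1445 by DESeq2, 955 with no filter and 189 to 1345 without 1 library; the cause was not tested. Without 1 library the genes called ran from 1141 to 2644 with the high fat diet (3333 with all), from 2554 to 4218 after hepatectomy (4225 with all) and from 0 to 1233 with TCPOBOP. With TCPOBOP edgeR called 0 members and 0 genes, DESeq2 called 1 member lower, 1 higher and 109 genes, and fits without 1 library called 0 to 2 members lower and 0 to 5 higher. There the log2 ratio of the Mup sum ran from -0.022 to 0.38 without 1 library, and the log2 fold changes from -0.068 to 0.84 for Mup1, from -0.10 to 0.13 for Mup3 and from -0.11 to 1.14 for Mup7. With plain library totals the Mup sum moved to -0.80 after hepatectomy and -1.64 with the high fat diet. Members whose hepatectomy effect exceeded the cholic acid effect numbered 2, against 5 by DESeq2, 6 with no filter, 4 with the replicate block and 1 to 4 without 1 library; for Mup20 that difference ran from -0.33 to 0.24 without 1 library.

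Samples share replicate numbers, but same-numbered samples did not all deviate together: correlations ran from -0.208 to 0.00385 in the knockout, -0.0748 to 0.119 in the hepatectomy and 0.0889 to 0.158 in the cholic acid experiment, where every library correlated best with its own number, a hint from the data and not the design. The 2-pair experiments gave 0.133 (TCPOBOP) and 0.137 (high fat), and no pairing is stated. With the replicate block the genes called went from 5441 to 4763 in the knockout, from 4225 to 3664 after hepatectomy, from 3333 to 3693 with the high fat diet and from 600 to 480 with cholic acid. There the block kept 5 members, with Mup17 in (-4.11, edgeR adjusted p = 0.0271) and Mup21 out (-3.13, edgeR adjusted p = 0.0954), and it gave Mup3 -0.00061 with TCPOBOP and Mup20 0.049 for the difference of effects. The likeness values without the knockout experiment were chosen after seeing the data.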
